A study of Mus musculus with 29 samples.

Results

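The 10 genes described here, Procr, Cd34, Tek, Esam, Ly6a, Cd27, Eng, Fgd5, Cd9 and Robo4, encode surface proteins that are stained to isolate or subdivide hematopoietic stem cells (HSC), except Fgd5, whose protein lies inside the cell and whose locus has been used for HSC reporter mice. They were chosen by name for this use, with earlier results of these data known, and are 10 of the 30025 genes in the deposited table. The study asked how loss of a segment of mouse chromosome 5, band 5A3, acts on HSC. All mice were on the C57BL/6J strain. The WT groups carried both copies of the segment, and the 5A3+/del groups were heterozygous for its germ line deletion, so every cell of the animal, in or outside the marrow, carried it. None of the 10 genes lies on chromosome 5. RNA was taken from CD150hi HSC, CD150lo HSC and CD150neg multipotent progenitors (MPP), sorted from the marrow as c-kit+, lineage−, Sca-1+, CD41− and CD48− cells and divided by their staining for CD150. The sample labels call the CD150neg cells HSC, and the name MPP follows the study's methods. There were 5 libraries in each group except 5A3+/del CD150neg MPP, which had 4, from 5 WT mice aged 12.42 to 13.28 weeks and 5 5A3+/del mice aged 12.42 to 13.85 weeks.

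Blood cells are replenished by a small pool of HSC that can renew themselves, and MPP, which have lost most of that ability, lie downstream of them. Because no surface protein is unique to HSC, the cells are recognized by combinations, in which some proteins, such as CD150 and EPCR, go with long-term repopulating cells and others, such as CD34 and Flt3 in adult mice, go with progenitors. Many HSC surface proteins are shared with the endothelium, from which HSC bud in the embryo. Tie2, endoglin, EPCR, Esam, Robo4 and CD34 are all found on both.

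The table gives FPKM, a measure that corrects fragment numbers for the length of the exons and the depth of the library and so lets levels be compared between genes. Between 21229490 and 38797569 fragments per library underlie them, with a median of 26967107, and the fewest fragments behind any value of the 10 genes were 286, for Tek. These fragment numbers are estimates, recovered from the values with exon lengths that may differ from those the authors used. Levels are given below as normalized FPKM, after quantile normalization over the 29 libraries. Differences were tested with limma on log2(FPKM + 1) over the 15409 genes that reached an FPKM of 1 in 4 or more libraries, and a gene was called at an adjusted p under 0.05. All 10 genes passed this filter and had 1 FPKM or more in all 29 libraries. Folds and percentages of a level given with a log2 difference are on the same scale, and so are ratios of FPKM + 1. A log2 difference or fold on this scale understates the change of low genes, here most of all Tek. In sorted cells of a mixed population, fewer cells of a type and less RNA per cell cannot be told apart.

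Some libraries stood apart before any comparison. The 3 libraries of WT mouse 3 had Xist at 234 to 319 FPKM, against at most 0.47 in the other 26, and the Y-linked genes Ddx3y, Eif2s3y, Uty and Kdm5d at no more than 0.069, against at least 5.88 in the other 26. Summed FPKM of 8 granulocyte genes ran from 7.22 to 1399, with S100a8 the most abundant (mean 91.3). The group means of the sum were 360.3 (WT) and 38.9 (5A3+/del) for CD150hi HSC, 408 and 168 in CD150lo HSC, and 69.8 and 109.8 in CD150neg MPP. The highest sums were those of WT mouse 1, with 951 for its CD150hi HSC and 1399 for its CD150lo HSC. The part of these transcripts in the differences below was not tested, but each count was repeated without the 5 libraries above 300.

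Summed markers of other cell types, several of which (B, T, erythroid and granulocytic cells) the lineage antibodies of the sort were meant to remove, reached at most 58.6 FPKM apart from the granulocyte genes. Of 10 endothelial genes, which matter here because endothelial cells also carry Tek, Esam, Eng and Robo4, the summed FPKM was 0.75 to 9.99, Fabp4 was the most abundant (mean 1.85), and Flt1, Lyve1, Sox17 and Ptprb were under 1 in every library. Over 5 B cell genes the sum was 5.89 to 32.2, led by Cd79b (mean 11.8), with Ms4a1 and Pax5 under 1 throughout. Over 6 T cell genes it was 2.54 to 10.8, led by Lck (mean 3.05), with Cd3g and Cd8a under 1. The 5 erythroid genes summed to 5.55 to 33.1, led by Hbb-b1 (mean 10.04), with all 5 reaching 1. Their sums in WT averaged 10.66 ± 2.383 in CD150hi HSC, 21.74 ± 6.267 in CD150lo HSC, without overlap, and 19.38 ± 10.26 in CD150neg MPP. In 5A3+/del mice the erythroid means were 12.78 ± 5.64, 24.55 ± 8.125 and 16.03 ± 6.268. The part of erythroid transcripts in the differences below was not tested. The 6 megakaryocyte genes summed to 24.2 to 58.6, led by Pf4 (mean 22.1), with Gp1bb under 1, and the 6 macrophage genes to 5.39 to 46.1, led by Cd68 (mean 15.03), with all 6 reaching 1. Mast cell and basophil genes (5) summed to 0.0827 to 4.74, with only Cpa3 reaching 1, and stromal genes (6) to 0.8 to 5.1, led by Pdgfrb (mean 2.2), with Cxcl12, Lepr, Col1a1 and Pdgfra under 1.

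Of the endothelial genes 4 passed the filter and 2 were called in a comparison of populations, both in 5A3+/del mice. Kdr was higher in CD150hi HSC, with 1.28 ± 1.16 normalized FPKM (n = 5), than in CD150lo HSC, with 0.272 ± 0.233 (n = 5, log2 difference 0.74, adjusted p = 0.0355), and than in CD150neg MPP, with 0.287 ± 0.156 (n = 4, log2 difference 0.71, adjusted p = 0.0411). Fabp4 was lower in CD150hi HSC, with 0.553 ± 0.562 (n = 5), than in CD150lo HSC of the same genotype, with 3.54 ± 1.15 (n = 5, log2 difference −1.58, adjusted p = 0.0457). These calls held in 5 of 15, 6 of 15 and 6 of 20 alternatives in which the gene was tested. In WT neither gene was called (for Kdr log2 difference 0.49, adjusted p = 0.229, and log2 difference 0.56, adjusted p = 0.0785, for Fabp4 log2 difference −0.55, adjusted p = 0.64), and the differences between genotypes were not called (adjusted p = 0.999 and 0.931 for Kdr, 0.999 for Fabp4). The endothelial sums had group means of 3.11 ± 1.53, 3.605 ± 1.77 and 4.54 ± 3.23 in WT CD150hi HSC, CD150lo HSC and CD150neg MPP and 4.59 ± 2.24, 6.78 ± 2.102 and 4.98 ± 3.37 in 5A3+/del mice. The part of endothelial transcripts in the differences below was not tested.

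Other marker genes were called as well. The stromal sums rose from 1.53 ± 0.662 through 2.89 ± 0.726 to 3.84 ± 0.441 FPKM from CD150hi HSC to CD150neg MPP in WT and from 1.97 ± 0.453 through 2.67 ± 0.816 to 3.92 ± 1.097 in 5A3+/del mice. Pdgfrb, the 1 stromal gene tested, was lower in CD150hi HSC than in CD150neg MPP of WT (log2 difference −1.34, adjusted p = 5.83e-05, called in 20 of 20 alternatives) and 5A3+/del mice (log2 difference −0.96, adjusted p = 0.00628, 17 of 20). Against CD150lo HSC Pdgfrb was lower in WT (log2 difference −0.91, adjusted p = 0.0104, 17 of 20) and not called in 5A3+/del mice (log2 difference −0.39, adjusted p = 0.451), with log2 difference 0.52, adjusted p = 0.999 for the difference between genotypes. Of 5 macrophage genes tested, Cd68 was lower in 5A3+/del CD150hi HSC than in CD150lo HSC (log2 difference −0.81, adjusted p = 0.0441, 5 of 21) and CD150neg MPP (log2 difference −0.86, adjusted p = 0.0265, 17 of 21). In WT Cd68 was not called (adjusted p = 0.239 and 0.166), nor was the difference between genotypes (adjusted p = 0.999 and 0.846). Of 7 granulocyte genes tested, Ltf was higher in CD150hi HSC than in CD150neg MPP of WT mice (log2 difference 1.39, adjusted p = 0.0327, 14 of 20) and not called in 5A3+/del mice (log2 difference −0.65, adjusted p = 0.519), with an adjusted p of 0.375 between genotypes. The part of these transcripts in the differences below was not tested.

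The genes of the sorting proteins gave levels that the gate itself bears on. Kit, the receptor for stem cell factor, had group means of 139.9 to 173 normalized FPKM, and Itga2b, which encodes CD41, 1.66 to 3.9. Cd48 had 0.341 ± 0.248 (SD, n = 5) in WT CD150hi HSC, 2.8 ± 1.75 (n = 5) in WT CD150lo HSC and 6.29 ± 3.02 (n = 5) in WT CD150neg MPP. Ly6a, which encodes Sca-1, belongs to the 10 genes and to the gate, so its level is not independent of the sort.

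Within every group the 10 genes spanned a wide range of levels in a similar order. Ly6a, Cd27, Cd34, Procr and Eng held the upper ranks and Robo4, Cd9, Esam, Fgd5 and Tek the lower ranks in all 6 groups. In WT CD150hi HSC the means fell from 115 ± 19.2 normalized FPKM (SD, n = 5) for Ly6a through 83.9 ± 26.1 for Cd27, 62.8 ± 23.1 for Procr, 49.6 ± 7.71 for Eng and 34.3 ± 12.1 for Cd34 to 22.1 ± 3.59 for Esam, 20.9 ± 3.301 for Robo4, 19.5 ± 3.98 for Cd9, 18.8 ± 3.17 for Fgd5 and 11.5 ± 3.696 for Tek. Each gene overlapped its neighbor in that order across the 5 libraries. In 5A3+/del CD150hi HSC the order was the same for the upper 5 genes, with Ly6a at 176 ± 30.6 clear of Cd27 at 76.9 ± 19.5 and Cd34 at 49.6 ± 8.34 clear of Cd9 at 22.4 ± 6.91 (n = 5). In CD150lo HSC, Cd34 stood in the 2nd rank in both genotypes, next to Ly6a, and a gap without overlap separated Eng, at 36.8 ± 3.73 in WT and 39.8 ± 1.85 in 5A3+/del, from the lower 5 genes. In WT CD150neg MPP, Cd34 was highest at 166 ± 16.5, and overlapped Ly6a at 146 ± 39.5, which in turn overlapped Cd27 at 133 ± 22.9. Tek was lowest in all 6 groups, down to 3.08 ± 0.546 (n = 4) in 5A3+/del CD150neg MPP, and did not overlap the gene above it in any group of CD150lo HSC or CD150neg MPP.

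**Figure D1:**
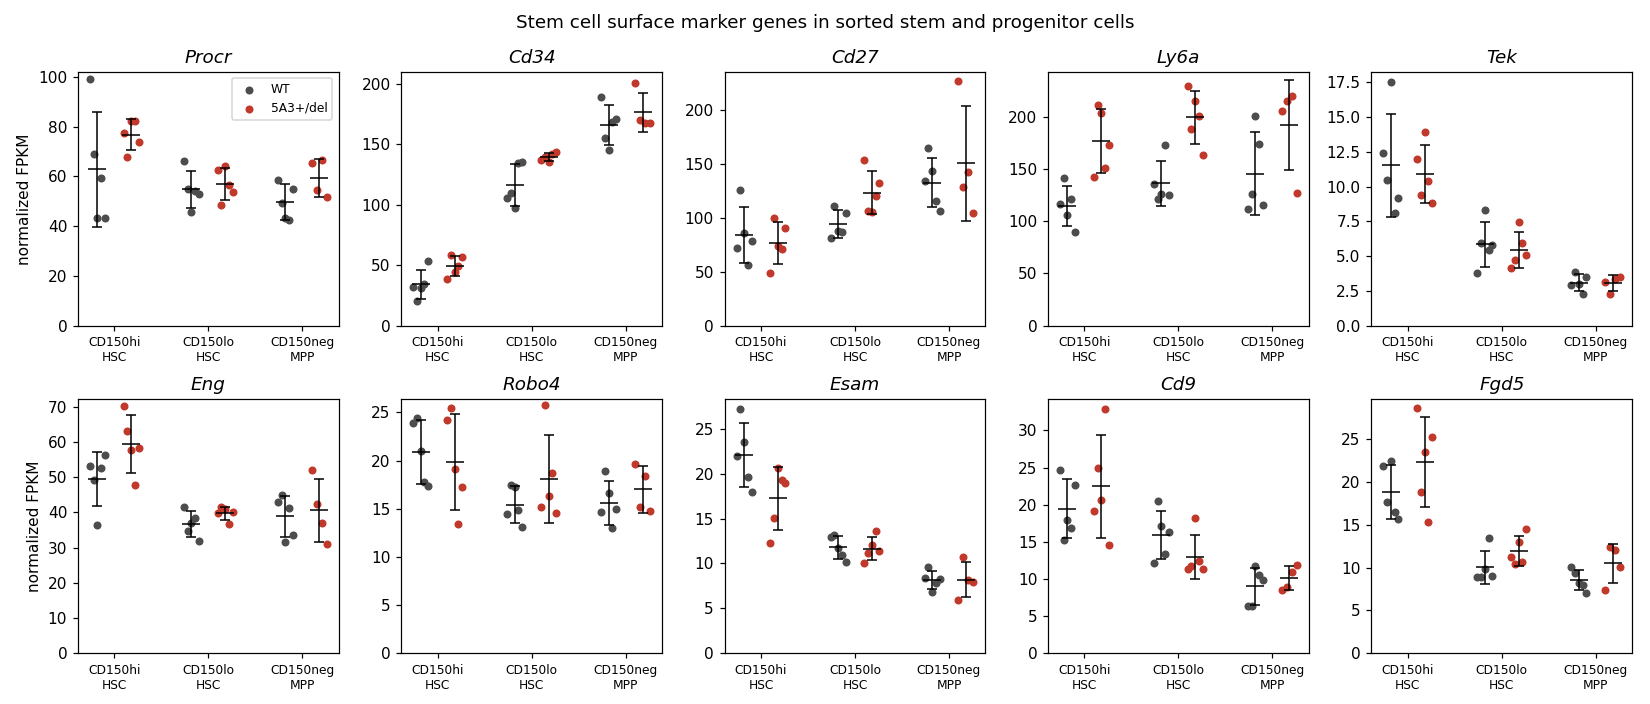
Normalized FPKM of the 10 genes in each of the 29 libraries (points, linear axis) by population and genotype, with the mean and SD of each group. Cd34 lies between 20.2 and 53.5 in WT CD150hi HSC and between 146 and 189 in WT CD150neg MPP, whereas Tek lies between 8.07 and 17.5 and between 2.25 and 3.87.

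Between CD150hi HSC and CD150lo HSC of WT mice, 4 of the 10 genes were called, with Tek, Esam and Fgd5 higher in CD150hi HSC and Cd34 lower, against 3.53% of all genes tested. Between CD150hi HSC and CD150neg MPP of WT mice, 6 were called, with Tek, Esam, Fgd5 and Cd9 higher and Cd34 and Cd27 lower, against 10.0% of all genes. In 5A3+/del mice 5 genes were called between CD150hi HSC and CD150lo HSC (Tek, Eng, Fgd5 and Cd9 higher, Cd34 lower), where 3.18% of all genes were called, and 7 between CD150hi HSC and CD150neg MPP (Tek, Esam, Eng, Fgd5 and Cd9 higher, Cd34 and Cd27 lower), where 6.16% were called. The step from CD150lo HSC to CD150neg MPP gave 0 called members with limma in either genotype, beside 0.188% of all genes in WT and 0.0389% in 5A3+/del mice. At an unadjusted p under 0.05 the counts for this step were 5 of the 10 genes in WT and 2 in 5A3+/del, beside 1349 and 763 of all genes (8.75% and 4.95%). The median log2 difference of the 10 genes between CD150hi HSC and CD150neg MPP was 0.37 in WT and 0.46 in 5A3+/del mice, beside −0.01 and 0.00 over all genes, and between CD150hi HSC and CD150lo HSC it was 0.34 and 0.47, beside 0.00 in both. For CD150lo HSC minus CD150neg MPP it was 0.06 and 0.07, beside −0.01 and 0.00. Groups did not overlap after normalization for 3, 5 and 3 of the 10 genes in WT, beside 4.04%, 8.63% and 2.26% of all genes. In 5A3+/del mice they did not overlap for 6, 7 and 2, beside 4.33%, 7.61% and 1.95%. The order is CD150hi against CD150lo HSC, CD150hi HSC against CD150neg MPP and CD150lo HSC against CD150neg MPP. These 6 comparisons share groups, so they are given side by side and not as separate evidence.

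**Figure D2:**
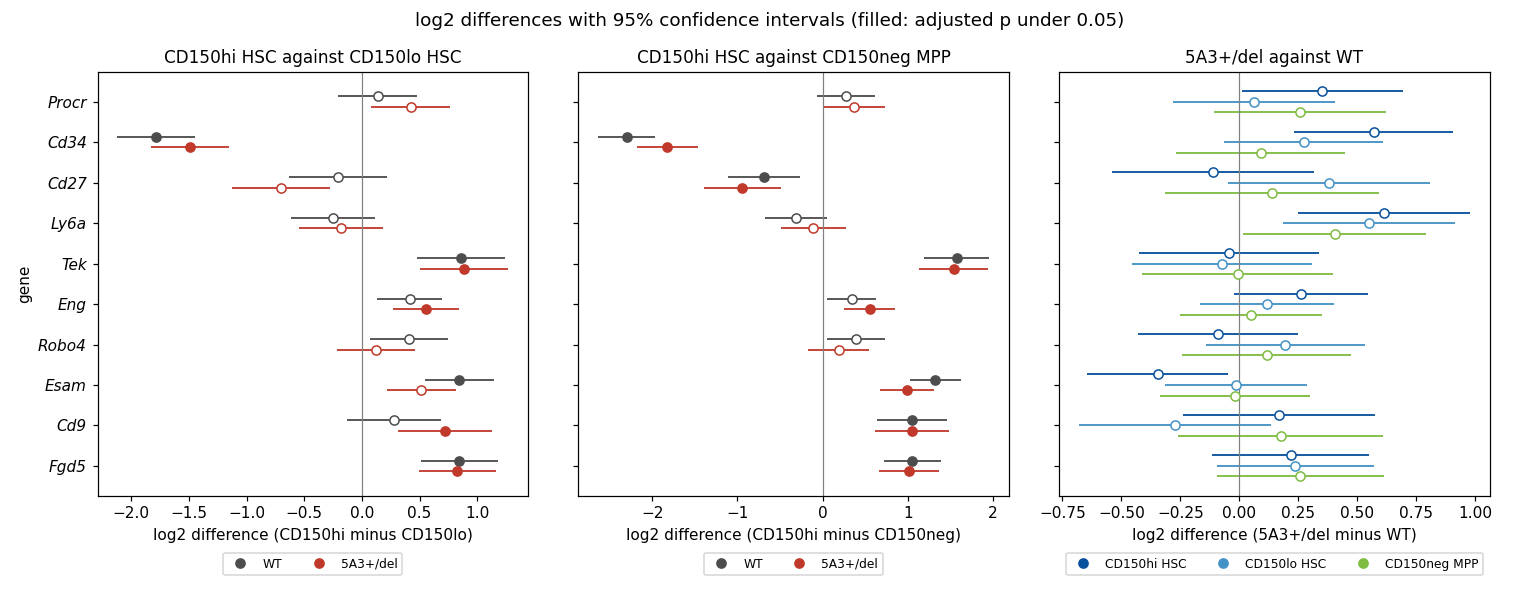
Log2 differences (horizontal axes, on the log2(FPKM + 1) scale) of the 10 genes with their 95% confidence intervals, for CD150hi HSC against CD150lo HSC, CD150hi HSC against CD150neg MPP and 5A3+/del against WT, with filled points for an adjusted p under 0.05. Cd34 lies farthest to the left in the panels of population, at −1.79 and −2.30 in WT, and in the panel of genotype Ly6a lies at 0.61, 0.55 and 0.40.

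Cd34 (ENSMUSG00000016494, chromosome 1, 196765015 to 196787486 on the plus strand in mm9) encodes a sialomucin of progenitors and endothelium whose loss from the surface marks the most primitive adult mouse HSC. In WT mice 1 to 5 its normalized FPKM was 31.6, 20.2, 31.6, 34.4 and 53.5 for CD150hi HSC, 105, 109, 97.2, 134 and 135 for CD150lo HSC and 189, 155, 146, 169 and 170.4 for CD150neg MPP. In 5A3+/del mice 1 to 5 it was 38.4, 58.1, 44.7, 49.5 and 57.1 for CD150hi HSC, 137, 139, 135, 142 and 143 for CD150lo HSC and 201, 169.6, 167 and 168 for CD150neg MPP, the last for mice 1 to 4. The 3 populations were fully separated in both genotypes, lowest in CD150hi HSC, higher in CD150lo HSC and highest in CD150neg MPP. CD150hi HSC held 29% of the CD150lo level in WT (log2 difference −1.79, adjusted p = 4.14e-08, lower in 5 of 5 mice) and 35.6% in 5A3+/del (log2 difference −1.49, adjusted p = 9.24e-07, 5 of 5 mice). Against CD150neg MPP the difference was −2.30 in WT (adjusted p = 9.75e-11, 5 of 5 mice) and −1.82 in 5A3+/del (adjusted p = 3.94e-08, 4 of 4 mice). From CD150lo HSC to CD150neg MPP Cd34 was not called, although it did not overlap in either genotype (log2 difference −0.51, adjusted p = 0.262 in WT and log2 difference −0.33, adjusted p = 0.988 in 5A3+/del). At this step 2.26% of all genes in WT and 1.95% in 5A3+/del mice did not overlap.

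Among relatives of CD34, the sialomucin Podxl ran the other way, with a level in CD150hi HSC above that in CD150neg MPP in WT (log2 difference 1.47, adjusted p = 2.12e-05) and in 5A3+/del mice (log2 difference 1.15, adjusted p = 0.00121). Podxl2, the other relative listed, did not pass the filter.

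Tek (ENSMUSG00000006386, chromosome 4, 94405980 to 94541667 on the plus strand) encodes Tie2, the receptor tyrosine kinase for angiopoietins that endothelium and quiescent HSC carry. WT mice 1 to 5 had normalized FPKM of 12.4, 10.5, 17.5, 8.07 and 9.18 for CD150hi HSC, 3.77, 5.92, 8.32, 5.44 and 5.797 for CD150lo HSC and 2.895, 3.87, 2.97, 2.25 and 3.53 for CD150neg MPP. 5A3+/del mice had 11.9, 9.39, 13.9, 10.4 and 8.83 for CD150hi HSC, 4.12, 4.74, 7.43, 5.91 and 5.09 for CD150lo HSC and 3.13, 2.29, 3.39 and 3.497 for CD150neg MPP. Mean levels were highest in CD150hi HSC and lowest in CD150neg MPP in both genotypes, but the step from CD150lo HSC to CD150neg MPP was not called in WT (log2 difference 0.72, adjusted p = 0.109) or 5A3+/del mice (log2 difference 0.65, adjusted p = 0.606), nor under any of 21 alternatives. In WT mice CD150lo HSC of mouse 3, the mouse with Xist, reached the lowest CD150hi HSC library and CD150lo HSC of mouse 1 fell below the highest CD150neg MPP library, whereas 5A3+/del populations did not overlap. The first of these overlaps was absent from deposited FPKM, where CD150lo HSC of mouse 3 had 7.26 and the lowest CD150hi HSC library 8.097. Tek was 2.98-fold higher in CD150hi HSC than in CD150neg MPP of WT mice (log2 difference 1.58, adjusted p = 1.06e-06, 5 of 5 mice) and 2.91-fold higher in 5A3+/del mice (log2 difference 1.54, adjusted p = 4.78e-06, 4 of 4 mice). Against CD150lo HSC it was 1.81-fold higher in WT (log2 difference 0.86, adjusted p = 0.00605, 5 of 5 mice) and 1.85-fold higher in 5A3+/del (log2 difference 0.89, adjusted p = 0.00464, 5 of 5 mice). The WT call for CD150hi against CD150lo HSC was lost without WT mouse 1 (adjusted p = 0.0732) and without the 5 libraries high in granulocyte genes (log2 difference 0.83, adjusted p = 0.126), and when only the libraries compared were fitted (log2 difference 0.86, adjusted p = 0.0907), with 0.00254 to 0.126 over all alternatives, and the 5A3+/del call without 5A3+/del mouse 1 (adjusted p = 0.0529, 0.00149 to 0.0529 over all).

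Of 4 genes listed with Tek, 3 passed the filter, the ligands Angpt1 and Angpt2 and the related receptor Tie1. Only Tie1 was called, higher in CD150hi HSC than in CD150neg MPP in WT (log2 difference 0.63, adjusted p = 0.00261) and in 5A3+/del mice (log2 difference 0.65, adjusted p = 0.00424). Angpt1 differed by 0.40 on the log2 scale in WT (adjusted p = 0.131) and by 0.37 in 5A3+/del mice (adjusted p = 0.258). The WT difference of Angpt1 was called without further normalization (adjusted p = 0.0335) and with median scaling (adjusted p = 0.0422).

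Eng (ENSMUSG00000026814, chromosome 2, 32502115 to 32538189 on the plus strand) encodes endoglin, a co-receptor for ligands of the TGF-β family. Its normalized FPKM was 53.4, 49.2, 36.6, 52.7 and 56.3 for CD150hi HSC, 41.6, 34.8, 37.1, 38.5 and 31.8 for CD150lo HSC and 42.9, 45.04, 31.6, 41.2 and 33.7 for CD150neg MPP in WT mice 1 to 5. In 5A3+/del mice it was 70.3, 63.1, 57.7, 47.8 and 58.3 for CD150hi HSC, 39.7, 41.6, 41.02, 36.8 and 40.1 for CD150lo HSC and 52.1, 42.4, 36.95 and 30.98 for CD150neg MPP. CD150hi HSC held the higher values, but in WT mice the value of mouse 3 lay within the range of both other populations, and in 5A3+/del mice CD150neg MPP of mouse 1 reached into the CD150hi range. Eng was called in 5A3+/del mice, between CD150hi and CD150lo HSC (log2 difference 0.56, adjusted p = 0.0199, higher in 5 of 5 mice) and between CD150hi HSC and CD150neg MPP (log2 difference 0.55, adjusted p = 0.0194, 4 of 4 mice). It was not called in WT mice (log2 difference 0.41, adjusted p = 0.117, and log2 difference 0.34, adjusted p = 0.132). The difference between genotypes was itself tested and was not called (log2 difference 0.14, adjusted p = 0.999, and log2 difference 0.21, adjusted p = 0.845). The call for CD150hi against CD150lo HSC was lost without 5A3+/del mouse 1, 2, 3 or 5 (adjusted p = 0.0766, 0.0883, 0.0718 and 0.0737), and that against CD150neg MPP without mouse 2, 3 or 4 (adjusted p = 0.0756, 0.109 and 0.0611), without further normalization (adjusted p = 0.0796) or with only the libraries compared (adjusted p = 0.182). Over all alternatives the adjusted p ran from 0.00785 to 0.0883 and from 0.00927 to 0.182.

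Among 7 listed ligands and receptors of the endoglin pathway, 5 passed the filter and 1 was called. Tgfbr3, which encodes betaglycan, a co-receptor related to endoglin, was higher in CD150hi HSC than in CD150neg MPP in WT (log2 difference 1.67, adjusted p = 1.89e-06) and in 5A3+/del mice (log2 difference 1.74, adjusted p = 3.48e-06). Tgfb1, Tgfbr1, Tgfbr2 and Bmpr2 were not called in any of the 6 comparisons, and Acvrl1, the endothelial type I receptor that endoglin works with, did not pass the filter.

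Procr (ENSMUSG00000027611, chromosome 2, 155576853 to 155581207 on the plus strand) encodes EPCR, the receptor for protein C, and Robo4 (ENSMUSG00000032125, chromosome 9, 37209482 to 37221608 on the plus strand) a roundabout receptor of endothelium and HSC that takes part in homing to the marrow. Procr ranged from 42.4 to 99 normalized FPKM over the 29 libraries, with means of 62.8 ± 23.1 (n = 5) in WT CD150hi HSC, 54.7 ± 7.45 (n = 5) in WT CD150lo HSC and 49.7 ± 7.04 (n = 5) in WT CD150neg MPP. The 5A3+/del means were 76.8 ± 6.13 (n = 5), 57.1 ± 6.46 (n = 5) and 59.5 ± 7.62 (n = 4). Every 5A3+/del CD150hi HSC library exceeded all CD150lo HSC libraries of that genotype. All of them exceeded the CD150neg MPP libraries after normalization only, since in deposited FPKM CD150hi HSC of mouse 2 had 66.7 and CD150neg MPP of mice 1 and 3 had 69.6 and 67.7. The WT populations overlapped, and no comparison of populations was called. The largest differences, 0.42 (95% CI 0.08 to 0.77, adjusted p = 0.217) and 0.37 (95% CI 0.00 to 0.73, adjusted p = 0.289), were both in 5A3+/del mice. Robo4 had the narrowest spread of the 10 genes, from 12.97 to 25.8 over the 29 libraries, and overlapped between all populations. Its differences between CD150hi HSC and the other populations were 0.41 and 0.39 in WT (adjusted p = 0.223 and 0.144) and 0.12 and 0.19 in 5A3+/del mice (adjusted p = 0.827 and 0.668).

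Of the 4 genes listed with Procr, 0 of the 3 tested (Thbd, F2r and F2rl2) were called with limma in any of the 6 comparisons. Of the 4 listed with Robo4, 0 of the 1 tested (Slit2) were called with limma in these comparisons. Slit2 differed by 0.63 between CD150hi HSC and CD150neg MPP in WT (adjusted p = 0.546) and by 1.27 in 5A3+/del mice (adjusted p = 0.244). Slit2 was called in the latter comparison with the mouse as a block (adjusted p = 0.00308) and without WT mouse 1 (adjusted p = 0.0476). F2r missed the threshold between CD150hi HSC and CD150neg MPP of WT mice (log2 difference 0.75, adjusted p = 0.0639) and passed it with the mouse as a block, with only the libraries compared, with age as a covariate and without 5A3+/del mouse 1 (adjusted p = 0.00911, 0.0413, 0.0451 and 0.0169). Robo1, which did not pass the filter, was called without it in 3 comparisons, CD150hi HSC against CD150neg MPP in WT (adjusted p = 0.0297) and in 5A3+/del mice (adjusted p = 0.0118) and CD150hi against CD150lo HSC in 5A3+/del mice (adjusted p = 0.0321).

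Esam (ENSMUSG00000001946, chromosome 9, 37335663 to 37345904 on the plus strand) encodes a junctional adhesion protein of endothelium, platelets and HSC. In WT mice 1 to 5 normalized FPKM reached 21.99, 27.3, 23.5, 19.6 and 18 for CD150hi HSC, 12.9, 13.2, 11.7, 10.96 and 10.1 for CD150lo HSC and 8.404, 9.62, 6.79, 7.84 and 8.28 for CD150neg MPP. The 5A3+/del mice had 12.2, 15.1, 20.6, 19.4 and 19.03 for CD150hi HSC, 10.1, 11.2, 12.01, 13.7 and 11.4 for CD150lo HSC and 5.92, 10.7, 8.18 and 7.91 for CD150neg MPP. All 3 WT populations were separate, with the highest levels in CD150hi HSC, except that CD150lo HSC and CD150neg MPP overlapped in deposited FPKM (9.93 in CD150lo HSC of mouse 5 and 10.3 in CD150neg MPP of mouse 2). In 5A3+/del mice CD150hi HSC of mouse 1 lay below the highest CD150lo HSC library, and CD150lo HSC overlapped CD150neg MPP. Esam was 1.796-fold higher in CD150hi than in CD150lo HSC of WT mice (log2 difference 0.84, adjusted p = 0.000579, 5 of 5 mice), and 2.501-fold and 1.99-fold higher than in CD150neg MPP of WT (log2 difference 1.32, adjusted p = 3.91e-07, 5 of 5 mice) and 5A3+/del mice (log2 difference 0.99, adjusted p = 7.66e-05, 4 of 4 mice). The difference between CD150hi and CD150lo HSC of 5A3+/del mice missed the threshold (log2 difference 0.51, adjusted p = 0.0507, 5 of 5 mice), and with the mouse as a block it was called (adjusted p = 0.018). It was also called without WT mouse 2 (adjusted p = 0.0457) or 5A3+/del mouse 1 (adjusted p = 0.0208), with the stricter filter (adjusted p = 0.0394) or with a trend in the variance prior (adjusted p = 0.045), and ran from 0.018 to 0.212 over all alternatives. The test of the difference between genotypes gave −0.33 (adjusted p = 0.999).

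Esam has relatives in the junctional adhesion family. Between CD150hi HSC and CD150neg MPP of WT mice all 3 tested genes of 4 listed were called higher, Jam2 (log2 difference 0.85, adjusted p = 0.00175), Jam3 (log2 difference 0.97, adjusted p = 0.00586) and F11r (log2 difference 0.66, adjusted p = 0.00569). Leaving out WT mouse 3 ended the call of Jam3 (adjusted p = 0.0573) and leaving out WT mouse 2 that of F11r (adjusted p = 0.0662). The 5A3+/del mice had calls for Jam2 (log2 difference 1.45, adjusted p = 6.49e-06) and F11r (log2 difference 0.59, adjusted p = 0.0302), the latter lost without 5A3+/del mouse 1, 3 or 4 (up to 0.238 over all alternatives), and none for Jam3 (log2 difference 0.69, adjusted p = 0.103). Between CD150hi and CD150lo HSC, 0 of the 3 were called with limma in WT, with adjusted p from 0.0557 (Jam2) to 0.353 (Jam3), and only Jam2 in 5A3+/del mice (log2 difference 1.31, adjusted p = 2.28e-05), where the test of the difference between genotypes gave 0.70 (adjusted p = 0.999). In WT, Jam2 was also called with the mouse as a block (log2 difference 0.61, adjusted p = 0.0376) and without 5A3+/del mouse 1 (adjusted p = 0.0404).

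Fgd5 (ENSMUSG00000034037, chromosome 6, 91928872 to 92025998 on the plus strand) encodes a guanine nucleotide exchange factor for Cdc42 that is found in HSC and endothelium. WT mice 1 to 5 gave normalized FPKM of 21.9, 17.6, 22.5, 16.5 and 15.6 for CD150hi HSC, 8.94, 8.93, 9.88, 13.4 and 9.04 for CD150lo HSC and 10.1, 9.34, 8.18, 7.95 and 7.03 for CD150neg MPP. In the 5A3+/del mice the values were 28.6, 18.8, 23.5, 15.3 and 25.3 for CD150hi HSC, 11.2, 10.4, 13.04, 10.6 and 14.5 for CD150lo HSC and 7.41, 12.4, 12.1 and 10.1 for CD150neg MPP. CD150hi HSC lay above every CD150lo HSC and CD150neg MPP library of the same genotype, while the latter 2 populations overlapped. In deposited FPKM CD150hi HSC of 5A3+/del mouse 4, at 14.2, lay below CD150lo HSC of mouse 5, at 14.7. The fold difference from CD150lo HSC was 1.796 in WT (log2 difference 0.84, adjusted p = 0.00188, 5 of 5 mice) and 1.77 in 5A3+/del mice (log2 difference 0.83, adjusted p = 0.0025, 5 of 5 mice), and from CD150neg MPP 2.08 (log2 difference 1.05, adjusted p = 5.18e-05, 5 of 5 mice) and 2.02 (log2 difference 1.01, adjusted p = 0.000243, 4 of 4 mice). Without the 5 libraries high in granulocyte genes the call against CD150lo HSC in WT was lost (log2 difference 0.86, adjusted p = 0.097, 0.000872 to 0.097 over all alternatives). Of 6 genes listed with it, 5 passed the filter. Cdc42, Fgd1 and Fgd3 were not called, nor was Fgd4, which passed the threshold under some alternatives in WT between CD150hi and CD150lo HSC (log2 difference −0.41, adjusted p = 0.0549, as low as 0.0298) and between CD150hi HSC and CD150neg MPP (log2 difference −0.34, adjusted p = 0.0775, as low as 0.0334), and Fgd2 was lower in CD150hi HSC than in CD150neg MPP of WT mice (log2 difference −0.86, adjusted p = 0.00986), a call lost without WT mouse 3 (adjusted p up to 0.0751 over all alternatives). In 5A3+/del mice Fgd2 missed the threshold in this comparison (adjusted p = 0.0655). It was called lower there with the mouse as a block (adjusted p = 0.0405) and without 5A3+/del mouse 1 (adjusted p = 0.0136).

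Cd9 (ENSMUSG00000030342, chromosome 6, 125410284 to 125444809 on the minus strand) encodes a tetraspanin of HSC and megakaryocytes. Its normalized FPKM in WT mice 1 to 5 was 24.6, 15.2, 17.98, 16.9 and 22.6 for CD150hi HSC, 12.2, 20.4, 17.1, 13.3 and 16.4 for CD150lo HSC and 6.36, 6.4, 11.7, 10.6 and 9.82 for CD150neg MPP. For 5A3+/del mice it was 19.2, 24.9, 20.6, 32.9 and 14.6 for CD150hi HSC, 11.3, 11.8, 18.2, 12.4 and 11.3 for CD150lo HSC and 8.44, 8.95, 10.96 and 11.9 for CD150neg MPP. CD150hi HSC and CD150neg MPP were separate in both genotypes, and CD150hi and CD150lo HSC overlapped in both. Against CD150neg MPP Cd9 was 2.08-fold higher in WT (log2 difference 1.05, adjusted p = 0.000645, 5 of 5 mice) and 2.07-fold higher in 5A3+/del mice (log2 difference 1.05, adjusted p = 0.00162, 4 of 4 mice). Against CD150lo HSC it was called in 5A3+/del (log2 difference 0.72, adjusted p = 0.0419, 5 of 5 mice) and not in WT mice (log2 difference 0.28, adjusted p = 0.588, 4 of 5 mice), and the difference between genotypes was not called (log2 difference 0.44, adjusted p = 0.999). The 5A3+/del call was lost without WT mouse 3, 4 or 5 (adjusted p = 0.0538, 0.0582 and 0.067) and without 5A3+/del mouse 1, 2 or 4 (adjusted p = 0.121, 0.21 and 0.208), and also with either smaller pseudocount (adjusted p = 0.0509 and 0.0554), without the filter (adjusted p = 0.0735) and with only the libraries compared (adjusted p = 0.154). It ran from 0.019 to 0.21 over all alternatives. WT CD150lo HSC lay above all WT CD150neg MPP libraries without passing the test (log2 difference 0.78, adjusted p = 0.108). Of 5 megakaryocyte genes tested, Itga2b, which also belongs to the gate, was called higher in CD150hi HSC than in CD150neg MPP of 5A3+/del mice (log2 difference 0.78, adjusted p = 0.0485, called in 3 of 20 alternatives) and not in WT (log2 difference 0.38, adjusted p = 0.337), with an adjusted p of 0.809 between genotypes. The megakaryocyte sums were 32.5 ± 7.45 and 31.9 ± 8.899 FPKM in these 2 groups of 5A3+/del mice and 42.2 ± 11.7 and 40.5 ± 11.4 in WT. CD150lo HSC had 43.2 ± 7.639 in 5A3+/del and 36.14 ± 5.445 in WT mice. In 5A3+/del mice the mean sum was thus lower in CD150hi than in CD150lo HSC, whereas Cd9 was higher. The part of megakaryocyte transcripts in the differences of Cd9 was not tested. Of the 4 genes listed as partners of CD9, Itgb1 and Igsf8 were not called in any comparison and Ptgfrn did not pass the filter. The tetraspanin Cd81 was higher in CD150hi than in CD150lo HSC of WT mice (log2 difference 0.41, adjusted p = 0.0497), a call lost without any of WT mice 1 to 5 or 5A3+/del mouse 2, 3 or 5 (adjusted p up to 0.345 over all alternatives), and than in CD150neg MPP of WT mice (log2 difference 0.38, adjusted p = 0.0357), lost without WT mouse 1, 3 or 5 or 5A3+/del mouse 3 (up to 0.243).

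Cd27 (ENSMUSG00000030336, chromosome 6, 125182640 to 125187028 on the minus strand) encodes a receptor of the TNF family that lymphocytes and multipotent progenitors carry. In WT mice 1 to 5 it stood at 72.2, 126, 86.3, 56.3 and 78.4 for CD150hi HSC, 81.7, 111, 87.7, 86.5 and 104 for CD150lo HSC and 134, 164, 143, 115 and 107 for CD150neg MPP normalized FPKM. The 5A3+/del values were 49.1, 99.7, 73.8, 71.1 and 90.7 for CD150hi HSC, 154, 106, 105, 121 and 132 for CD150lo HSC and 226, 129, 142 and 104 for CD150neg MPP. Like Cd34, it was lowest in CD150hi HSC and highest in CD150neg MPP, but with overlap between all WT populations, and in 5A3+/del mice only CD150hi HSC were clear of the others. Cd27 was lower in CD150hi HSC than in CD150neg MPP of WT (log2 difference −0.69, adjusted p = 0.0325, lower in 5 of 5 mice) and 5A3+/del mice (log2 difference −0.94, adjusted p = 0.00716, 4 of 4 mice). The WT call was lost without WT mouse 1, 3, 4 or 5 (adjusted p = 0.127, 0.0935, 0.124 and 0.0627), without 5A3+/del mouse 3 (adjusted p = 0.0511), without the libraries high in granulocyte genes (log2 difference −0.89, adjusted p = 0.0668), without the filter (adjusted p = 0.0578) or with only the libraries compared (adjusted p = 0.0794), and ran from 0.0083 to 0.127 over all alternatives. The 5A3+/del call was lost without 5A3+/del mouse 1 (adjusted p = 0.143) and with only the libraries compared (adjusted p = 0.107), and ran from 0.00391 to 0.143 over all. Between CD150hi and CD150lo HSC of 5A3+/del mice Cd27 missed the threshold without overlap (log2 difference −0.70, adjusted p = 0.0652), and passed it without WT mouse 2 (adjusted p = 0.0403) and with a trend in the variance prior (adjusted p = 0.0452, 0.0403 to 0.3 over all). The signaling genes Traf2, Traf5 and Siva1 were not called in any comparison, and its ligand Cd70 did not pass the filter. The summed T cell genes moved in the same direction as Cd27, with means of 3.19 ± 0.553, 4.92 ± 0.676 and 7.88 ± 2.28 FPKM from CD150hi HSC through CD150lo HSC to CD150neg MPP of WT mice and 3.33 ± 0.399, 5.01 ± 1.92 and 6.12 ± 1.57 in 5A3+/del mice. Between CD150hi HSC and CD150neg MPP, Lck was called lower in WT (log2 difference −0.90, adjusted p = 0.0241, called in 16 of 20 alternatives) and not in 5A3+/del mice (log2 difference −0.20, adjusted p = 0.799), and Cd4 was called lower in 5A3+/del (log2 difference −1.11, adjusted p = 0.033, called in 13 of 20 alternatives) and not in WT mice (log2 difference −0.52, adjusted p = 0.327). The differences between genotypes were not called (for Lck log2 difference 0.70, adjusted p = 0.656, for Cd4 log2 difference −0.59, adjusted p = 0.778). The part of T cell transcripts in the differences of Cd27 was not tested.

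Between genotypes, 0 of the 10 genes were called with limma in any population. The share of all genes called was 0.156% for CD150hi HSC, 0.0324% for CD150lo HSC and 0.0454% for CD150neg MPP. At an unadjusted p under 0.05 there were 4 of the 10 genes in CD150hi HSC (Procr, Cd34, Esam and Ly6a), 1 in CD150lo HSC and 1 in CD150neg MPP (both Ly6a), beside 2018, 1059 and 658 of the 15409 genes. The median log2 difference of the 10 genes was 0.19, 0.16 and 0.13 in the 3 populations, beside 0.00, 0.01 and 0.00 over all genes. After normalization the genotypes did not overlap for 1 (Ly6a), 0 and 0 of the 10 genes, beside 2.58%, 1.63% and 1.51% of all genes. The 3 tests of a population difference between genotypes also gave 0 called members with limma, where 0% of all genes were called in each, and 0 of the 10 genes had an unadjusted p under 0.05, beside 614 genes for CD150hi against CD150lo HSC, 771 for CD150lo HSC against CD150neg MPP and 1227 for CD150hi HSC against CD150neg MPP.

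Ly6a (ENSMUSG00000075602, chromosome 15, 74825308 to 74828064 on the minus strand) encodes Sca-1, a GPI-anchored protein of the Ly6 family that the gate requires. Its normalized FPKM in CD150hi HSC was 116, 141, 106, 122 and 89.2 in WT mice 1 to 5 and 143, 211, 203, 151 and 173 in 5A3+/del mice 1 to 5. CD150lo HSC had 136, 121, 126, 173 and 125 in WT and 229.5, 188, 215, 201 and 163 in 5A3+/del mice, and CD150neg MPP 112, 126, 201, 174 and 115 in WT and 206, 215, 219.5 and 127 in 5A3+/del mice 1 to 4. After normalization every 5A3+/del CD150hi HSC library lay above every WT library, but in deposited FPKM 3 of 5 did, with 155 in WT mouse 2 and 146 and 136 in 5A3+/del mice 1 and 4. On both scales so did 4 of 5 in CD150lo HSC and 3 of 4 in CD150neg MPP, where WT mouse 3 was the highest of its group and 5A3+/del mouse 4 lay within the WT range. The 5A3+/del level was 153% of WT in CD150hi HSC (0.61, 95% CI 0.25 to 0.98, adjusted p = 0.12), 146% in CD150lo HSC (0.55, 95% CI 0.18 to 0.91, adjusted p = 0.346) and 132% in CD150neg MPP (0.40, 95% CI 0.02 to 0.79, adjusted p = 1). Between populations Ly6a was not called in either genotype, with differences from −0.32 to 0.08. Without the libraries high in granulocyte genes, which were mostly WT CD150hi HSC, the difference in CD150hi HSC was 0.61 (adjusted p = 0.623, with 0.0739 to 0.623 over all alternatives).

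A contrast added after the values were seen averaged the genotype difference over the 3 populations with the mouse as a random block (consensus correlation 0.0793). It called 0.247% of all genes and 1 of the 10, Ly6a, at 143% of WT (log2 difference 0.52, 95% CI 0.29 to 0.75, adjusted p = 0.0433). That call was lost without WT mouse 1, 2, 3 or 5 (adjusted p = 0.139, 0.0903, 0.0594 and 0.097), without 5A3+/del mouse 1, 2, 3 or 5 (adjusted p = 0.0913, 0.153, 0.16 and 0.0704), without the libraries high in granulocyte genes (adjusted p = 0.219), without further normalization (adjusted p = 0.105) and with median scaling (adjusted p = 0.128), with 0.0158 to 0.219 over all alternatives, while the log2 difference was 0.46 to 0.60. Reads of Ly6a can be shared with near copies in the Ly6 family, so its level carries that uncertainty. Of 6 listed relatives 3 passed the filter. Ly6e, the closest gene to Ly6a in its pattern, had means of 267 ± 50.2 (WT, n = 5) and 348 ± 39.4 (5A3+/del, n = 5) in CD150hi HSC, 266 ± 22.2 (n = 5) and 391 ± 31.6 (n = 5) in CD150lo HSC, and 329 ± 25.7 (n = 5) and 393 ± 99.3 (n = 4) in CD150neg MPP. It was not called within a population (adjusted p = 0.2, 0.146 and 1), and in the averaged contrast Ly6e had a log2 difference of 0.39 (adjusted p = 0.0467, 0.0122 to 0.175 over the alternatives), a call lost without WT mouse 1, 3, 4 or 5 or 5A3+/del mouse 1, 2, 3 or 5. Ly6c1 and Ly6c2 had group means of at most 2.72 and 4.07, and Ly6c1 was called lower in CD150hi HSC than in CD150neg MPP of WT mice (log2 difference −1.48, adjusted p = 0.000244).

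Within each population the other 9 genes had smaller genotype differences than Ly6a, but Cd34 came close in CD150hi HSC (0.57 beside 0.61). The genes were not tested against each other. Intervals of the 9 genes bound what could have been missed. Cd34 in CD150hi HSC was 148% of WT (0.57, 95% CI 0.23 to 0.91, adjusted p = 0.12). It was called without WT mouse 5, the highest WT library (adjusted p = 0.0395, with 0.0395 to 0.573 over all alternatives). In CD150lo HSC the difference was 0.27 (95% CI −0.07 to 0.61), with 4 of 5 5A3+/del libraries above all WT ones after normalization and 0 of 5 in deposited FPKM, where WT mouse 4 had 140.1, and in CD150neg MPP 0.09 (95% CI −0.27 to 0.45). Esam was the only gene with a negative difference whose interval did not include 0, −0.35 in CD150hi HSC (95% CI −0.65 to −0.05, adjusted p = 0.305). Procr differed by 0.35 in CD150hi HSC (95% CI 0.01 to 0.69, adjusted p = 0.37), where all 5 5A3+/del libraries lay within the WT range of 43.2 to 99. For Tek the intervals were −0.42 to 0.34 in CD150hi HSC, −0.45 to 0.31 in CD150lo HSC and −0.41 to 0.40 in CD150neg MPP. Across Cd27, Eng, Fgd5, Cd9 and Robo4 the differences ran from −0.27, for Cd9 in CD150lo HSC (95% CI −0.68 to 0.13), to 0.38, for Cd27 in CD150lo HSC (95% CI −0.05 to 0.81).

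Other genes used to recognize HSC and progenitors gave a frame for the 10. Of 25 further HSC surface genes 24 were tested, and between CD150hi HSC and CD150neg MPP 9 were called higher and 2 lower in WT and 7 higher and 0 lower in 5A3+/del mice, where 10.0% and 6.16% of all genes were called. Of the 9 higher in WT, Itga6 was lost without WT mouse 1, 3 or 5, Cd81 without WT mouse 1, 3 or 5 or 5A3+/del mouse 3, and Jam3 without WT mouse 3, which left as few as 6, and of the 2 lower, Cd47 was lost without WT mouse 2 and Alcam without WT mouse 5. In 5A3+/del mice Cd63 was lost without 5A3+/del mouse 1 or 3. Other genes of this list gained a call there. With the mouse as a block Itga6 and Selp were called (adjusted p = 0.00713 and 0.0219, beside 0.0707 and 0.186 as reported). Itga6 was also called with median scaling and without WT mouse 4. Abcg2 was called without WT mouse 3 or 5A3+/del mouse 4 (adjusted p = 0.0282 and 0.0472), and Gpr56 with a trend in the variance prior (adjusted p = 0.0476). The smallest adjusted p-values were those of Slamf1, which encodes CD150 itself and was fixed by the gate (log2 difference 3.75, adjusted p = 1.29e-12 in WT), of Neo1, the receptor neogenin (log2 difference 1.96, adjusted p = 7.22e-08 in WT and 2.49, adjusted p = 3.3e-09 in 5A3+/del), and of Cd38, an ectoenzyme (log2 difference 1.64, adjusted p = 4.59e-05 in WT and 2.11, adjusted p = 3.69e-06 in 5A3+/del). Of 12 progenitor surface genes 9 were tested, with 7 called lower in WT and 6 in 5A3+/del mice and 0 higher in either, among them the cytokine receptor Flt3 (log2 difference −3.75, adjusted p = 1.96e-13 in WT) and the sialic acid-binding lectin Cd33 (log2 difference −3.63, adjusted p = 6.13e-09 in WT). Cd48 was among the 7 and the 6 (log2 difference −2.37, adjusted p = 2.49e-05 in WT and −2.13, adjusted p = 0.000283 in 5A3+/del) and belongs to the gate, so its call is not independent of the sort. Of 10 intracellular or secreted HSC markers, 9 were called higher in WT and 8 in 5A3+/del mice, led by Vwf, von Willebrand factor (log2 difference 2.16, adjusted p = 5.52e-11 in WT). Hlf was not called in WT (adjusted p = 0.075) and ran the other way. It was called lower with the mouse as a block (log2 difference −0.40, adjusted p = 0.0158) and with a trend in the variance prior (adjusted p = 0.044). Ndn, not called in 5A3+/del mice (adjusted p = 0.272), was called higher without 5A3+/del mouse 1 (adjusted p = 0.0253). In WT the progenitor gene Csf3r was lost without any of WT mice 1 to 5 or 5A3+/del mouse 2, 3 or 5, and the HSC gene Meis1 was lost without WT mouse 2, 4 or 5, and in 5A3+/del mice without 5A3+/del mouse 2 or 3. The medians of the 3 lists for this comparison were 0.33, −1.35 and 1.24 in WT and 0.45, −0.89 and 1.18 in 5A3+/del mice, beside −0.01 and 0.00 over all genes. Between genotypes 0 genes of these 3 lists were called in any population, with limma, and their medians lay between −0.04 and 0.18.

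The genes whose pattern over the 29 libraries was closest to each of the 10 were found by Pearson correlation of normalized log2 values, a description of libraries that share populations and mice. For Cd34 they were Tespa1 (r = 0.958), Flt3 (0.953) and Il1r1 (0.952), for Tek Slc18a2 (0.909), Gata2 (0.903) and Aldh1a1 (0.901), and for Esam Nupr1 (0.917), Nckap1 (0.917) and Lancl3 (0.891). For Fgd5 they were Dennd4a (0.925), Sfrp1 (0.9) and Clec7a (0.897), for Cd9 Lima1 (0.898), 1110020G09Rik (0.836) and Slc6a15 (0.835), and for Cd27 Notch1 (0.848), Laptm5 (0.843) and Slco3a1 (0.832). Eng was closest to Uba7 (0.86), Gaa (0.853) and Ptk2b (0.838). The closest genes were less close for Procr, with Slit2 (0.794), Skint3 (0.752) and H2-Aa (0.738), for Robo4, with B9d1 (0.794), Tspan9 (0.776) and Wdr90 (0.751), and for Ly6a, with Ly6e (0.776), Dtx3l (0.681) and Casp1 (0.66).

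Among themselves, Tek correlated with Esam at r = 0.858, with Fgd5 at 0.816 and with Cd9 at 0.805 over the 29 libraries, and Cd34 with the same 4 genes at −0.879 (Tek), −0.904 (Esam), −0.812 (Fgd5) and −0.71 (Cd9). With the group means taken out, these became 0.128, 0.273 and 0.248 for Tek, and −0.28, −0.341, −0.2 and 0.0665 for Cd34. Correlations of Ly6a with the other 9 ran from −0.289 with Esam to 0.394 with Cd27. Of the neighboring pairs, Cd27 and Cd9 lie 223255 bp apart on chromosome 6 with 6 genes between them and had r = −0.7, and Robo4 and Esam lie 114054 bp apart on chromosome 9 with 2 genes between them and had r = 0.405.

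The 250 bases before the transcription start, from RefSeq on GRCm38.p6, were matched for 8 of the 10 genes, all except Esam and Ly6a. They were searched on both strands for AGATAA for GATA factors, AGGAAG for ETS factors, TGTGGT for RUNX factors and CAGCTG for an E-box, letters bound by factors of blood and endothelial development. Of 32851 windows of this length in the table, 9.99%, 29.5%, 14.0% and 13.0% held them. AGATAA and TGTGGT were found in 0 of the 8 windows. AGGAAG was found in Cd34, Fgd5, Cd9, Robo4 and, at 2 places, Eng, CAGCTG in Procr, Cd9 and Robo4, and no motif in Tek or Cd27. The windows of the 4 matched genes that were called in both genotypes between CD150hi HSC and CD150neg MPP and in at least 1 genotype between CD150hi and CD150lo HSC are shown, 5′ to 3′, with the matches on either strand in capitals: Cd34 (chr1:194938571-194938820 on the plus strand, GC 46.4%), which was lowest in CD150hi HSC, and Tek (chr4:94739039-94739288 on the plus strand, GC 51.2%), Fgd5 (chr6:91978715-91978964 on the plus strand, GC 71.6%) and Cd9 (chr6:125494761-125495010 on the minus strand, GC 61.6%), which were highest there. The median GC content of all windows was 52.4%.
Cd34: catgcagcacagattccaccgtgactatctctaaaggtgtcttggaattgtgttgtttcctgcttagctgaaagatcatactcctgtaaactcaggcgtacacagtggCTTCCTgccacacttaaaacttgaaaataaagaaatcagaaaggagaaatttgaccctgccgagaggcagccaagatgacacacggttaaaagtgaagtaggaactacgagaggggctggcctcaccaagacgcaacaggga
Tek: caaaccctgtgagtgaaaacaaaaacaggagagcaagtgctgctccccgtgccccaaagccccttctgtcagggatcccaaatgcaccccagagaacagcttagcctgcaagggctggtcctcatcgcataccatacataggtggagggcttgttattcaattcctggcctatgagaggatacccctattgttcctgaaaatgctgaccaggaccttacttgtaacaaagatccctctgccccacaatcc
Fgd5: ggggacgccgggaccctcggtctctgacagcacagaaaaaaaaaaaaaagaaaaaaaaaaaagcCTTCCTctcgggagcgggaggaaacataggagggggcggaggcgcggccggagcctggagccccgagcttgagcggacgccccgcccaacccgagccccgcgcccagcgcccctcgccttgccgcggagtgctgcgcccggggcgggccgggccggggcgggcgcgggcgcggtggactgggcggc
Cd9: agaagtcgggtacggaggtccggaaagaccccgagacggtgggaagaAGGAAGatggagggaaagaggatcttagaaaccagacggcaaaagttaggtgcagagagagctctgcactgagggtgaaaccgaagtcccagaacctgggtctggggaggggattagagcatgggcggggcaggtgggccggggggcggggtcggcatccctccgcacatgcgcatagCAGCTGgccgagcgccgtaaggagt
In Cd34 the match lies at −142 from the start, in Fgd5 at −186, and in Cd9 at −203 (AGGAAG) and −25 (CAGCTG). A match describes these letters only, and a window without them says nothing about the factors.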

How the data were processed

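RNA of the sorted cells was amplified before sequencing by the authors, with mm9 as the genome, and the submitters' processing notes name Bowtie 0.12.2 and HTSeq. The deposited values are FPKM per gene in 29 libraries. Fragments per library (21229490 to 38797569) were recovered from the steps of low values with mm9 GENCODE exon lengths, and cover counting error only. The annotation used by the authors was not known, so these numbers are estimates.

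The following was computed here. Genes with FPKM of at least 1 in at least 4 libraries (15409 of 30025) were transformed as log2(FPKM + 1) and quantile normalized. limma 3.58.1 in R 4.3.3 fitted 6 group means, and 3 genotype, 6 population and 3 genotype by population contrasts were tested two-sided with Benjamini-Hochberg adjustment over all genes. Python 3.11.15 with pandas 2.3.3 prepared the tables, and the steps were tested on simulated data. Alternatives changed the pseudocount, filter, normalization, variance prior, libraries fitted, block and age term, and left out each mouse. All 10 genes were named whatever their results, with the 3 most correlated genes of each. Of the HSC and progenitor lists, the 1 to 3 genes with the smallest adjusted p were named, and other listed genes were picked after their values were seen. Lists held HSC surface, progenitor surface and intracellular HSC genes, partners of each protein, Ly6 relatives, sorting genes and markers of 9 other cell types. The genes and lists were chosen with earlier results of these data known, and 3 genes of the planned lists were left out afterwards for reasons unrelated to their values.

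Label codes assign the 3 populations of a genotype to the same mice. Deviations from group means correlated at −0.0418 to 0.235 (median 0.0786) over 28 same-mouse pairs, and Xist marked all 3 libraries of WT mouse 3. Values from other assays in the study were not analysed here.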

Additional observations from a re-analysis of the deposited data

Results flagged for a closer look

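In 66 groups of 4 or 5 libraries, 60 of values of the 10 genes and 6 of summed granulocyte FPKM, 7 had a library far from the rest by the gap to its neighbor relative to the range of its group, 5 of them among the 10 genes. By chance about 1 in 20 groups would. Ly6a was 173 normalized FPKM in WT CD150lo HSC of mouse 4, with the next library at 135.9, and Fgd5 in the same library was 13.4, with the next at 9.88. Cd9 was 18.2 in 5A3+/del CD150lo HSC of mouse 3, next to 12.4, and Cd34 was 201 in 5A3+/del CD150neg MPP of mouse 1, next to 169.6. Ly6a was low, at 127 in 5A3+/del CD150neg MPP of mouse 4, where the next library had 206. Summed granulocyte FPKM was 123 in 5A3+/del CD150hi HSC of mouse 2, against 22.4 in the next library, and 1399 in WT CD150lo HSC of mouse 1, against 279.5. The sources of these values were not tested.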

How the results depend on the processing

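Of the values of 130 differences of the 10 genes under the alternatives, 2667 stayed on the same side of the threshold, 45 lost the call and 8 gained it. Differences that were called never changed sign (0), and uncalled ones did so in 99 values. Of 60 mean levels, 59 moved by less than 1 SD with deposited FPKM. Leaving out each mouse gave 0 to 1 called members for 5A3+/del minus WT in CD150hi HSC (0 with all mice, 1 without WT mouse 5, Cd34 at adjusted p = 0.0395) and 3 to 7 for CD150hi minus CD150lo HSC in 5A3+/del mice (5 with all, 3 without 5A3+/del mouse 1 or 2). The averaged genotype contrast, added after the data were seen, gave 0 to 1, and 0 in place of 1 without further normalization (Ly6a, adjusted p = 0.105), with median scaling (0.128) and without the 5 libraries high in granulocyte genes (0.219). That last alternative, also added after the data were seen, kept 24 libraries and lowered the members called for CD150hi minus CD150lo HSC in WT from 4 to 2, Cd34 and Esam, while the log2 differences of the 2 lost were 0.83 for Tek and 0.86 for Fgd5, beside 0.86 and 0.84 as reported. The causes were not tested, other than that fewer libraries entered.

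As a replicate block for population contrasts, the mouse changed no other call of the 10 genes than that of Esam (adjusted p = 0.018). Over all genes it gave 627, 1 and 1646 calls in WT in place of 544, 29 and 1548 (CD150hi minus CD150lo HSC, CD150lo HSC minus CD150neg MPP and CD150hi HSC minus CD150neg MPP), and 602, 2 and 1036 in 5A3+/del mice in place of 490, 6 and 949. As a replicate block for genotype contrasts, the replicate number, which joins different mice (14 pairs, r −0.0338 to 0.0807, 0 over 0.1), gave 0 called members in each population, as without it, 1 in the averaged contrast, and 16, 8 and 4 called genes in place of 24, 5 and 7, and 65 in place of 38 averaged.

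Counts over all genes ranged, over the alternatives and then over left-out mice, from 141 to 627 and 330 to 628 for CD150hi minus CD150lo HSC in WT (544), 591 to 1646 and 1030 to 1776 for CD150hi HSC minus CD150neg MPP (1548), and 0 to 64 and 0 to 69 for CD150lo HSC minus CD150neg MPP (29). In 5A3+/del mice they were 292 to 602 and 334 to 505 (490), 449 to 1036 and 624 to 971 (949), and 0 to 8 and 0 to 4 (6). By genotype they were 0 to 100 and 4 to 40 in CD150hi HSC (24), 0 to 31 and 3 to 74 in CD150lo HSC (5), 0 to 7 and 3 to 8 in CD150neg MPP (7), and 14 to 81 and 10 to 59 averaged (38). Genotype by population contrasts gave at most 2 and 13. The share called higher moved from 20.8% to 34.8% with median scaling for genotype in CD150hi HSC (24 and 23 genes called). Without further normalization it moved from 14.3% to 0% in CD150neg MPP (7 and 6) and from 36.8% to 23.8% averaged (38 and 21). It also moved from 82.8% to 50% (29 and 2) for CD150lo HSC minus CD150neg MPP in WT. The median over all genes farthest from 0 under a scaling was −0.05, for that comparison without further normalization, beside −0.01 as reported.

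Of 100 called differences of the other listed genes, 61 were called under every alternative and 0 changed sign. Other differences of listed genes gained a call under some alternatives. Between genotypes in CD150hi HSC, Jam2 missed the threshold (adjusted p = 0.0519). It was called without WT mouse 3 (adjusted p = 0.0326), without the filter or with a trend in the variance prior (0.046 each), and with the replicate number as a block (0.0491). With 4 or 5 libraries per group and RNA amplified from few cells, differences within the intervals given could not be resolved, and levels of Tek rest on the fewest fragments.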
